A study of Mus musculus with 4 samples.

Results

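Single-cell RNA-sequencing counts were examined for 7 genes of mineralized bone matrix, taken by symbol from the 32286 genes listed in each of 4 libraries. They were the 3 osteocalcin genes Bglap, Bglap2 and Bglap3 and 4 genes of the small integrin-binding ligand, N-linked glycoproteins, namely Ibsp, Dmp1, Spp1 and Mepe. The cells carried the red fluorescent protein tdTomato (tdTom) and were sorted from vertebrae T11 to L2 of mice, after enzymatic digestion and after removal of dead cells and of cells stained for CD11b, CD31 or CD45. Control mice were Prss56Cre/+;R26tdTom/tdTom;Nf1+/+ and mutant mice were Prss56Cre/Cre;R26tdTom/tdTom;Nf1fl/fl, each at 3 months and at 12-16 months of age. Every group carried the R26tdTom reporter and Cre at the Prss56 locus. The tdTom label thus marks cells in which Prss56 is or was active, and also their descendants. A sorted cell need not itself have expressed Prss56. Control mice had 1 Cre allele and mutant mice 2, and the effect of that number and of Nf1 loss cannot be told apart. There was 1 library for each condition, the number of animals behind a library is not given in the sources used here, and no test between conditions was possible. The 10x Genomics 3′ chemistry counts molecules by unique molecular identifiers (UMIs), and all intervals below are 95% intervals that cover counting error only.

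Osteocalcin is a small vitamin K-dependent protein that osteoblasts, the bone-forming cells, secrete into the matrix, where it binds calcium in the mineral. The glycoprotein genes encode acidic, phosphorylated matrix proteins that bind mineral and cell-surface integrins. Bone sialoprotein (Ibsp) favors mineral formation, osteopontin (Spp1) and Mepe restrain it, and Dmp1 is made mainly by osteocytes, the osteoblasts that have become embedded in bone. Chondrocytes that enlarge next to bone (hypertrophic chondrocytes) also make Ibsp and Spp1.

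Of the barcodes, 1757 passed the study's limits (above 750 UMIs and 500 genes, with mitochondrial counts under 7%), namely 717 for control and 484 for mutant at 3 months, and 135 for control and 421 for mutant at 12-16 months. Their summed depth was lowest for control at 12-16 months (2154537 UMIs) and highest for control at 3 months (9429264 UMIs), and the median cell had from 8189 to 12644 UMIs. No barcode was shared between libraries. Cells were put into 4 classes by counts of other genes. Cells with at least 100 Col1a1 UMIs (type I collagen, the main protein of bone matrix) were called Col1a1-high. Of the rest, cells with Sox9 and at least 3 Acan UMIs were called cartilage, and cells with Runx2 and at most 2 Acan UMIs were called bone/stroma. The remaining cells, called other cells, served as the background level, although they were a mixture, as described below. Nf1, the targeted gene, had 131 and 150 CPM (UMIs per 1000000 UMIs) at 3 months for control and mutant, and 147 and 125 CPM at 12-16 months. These 3′ counts do not check the floxed deletion.

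Most of the 39 Col1a1-high cells carried osteoblast markers. Sp7 was found in 97.4% of them, Ifitm5 in 92.3% and Alpl in 87.2%, but Phospho1 in only 15.4%. Of the listed osteocyte genes, Phex was found in 89.7% and Pdpn in 28.2%, and no cell had a UMI of Sost or Fgf23. Col2a1, a collagen gene of cartilage, was found in 74.4%, and none had a UMI of Ptprc (CD45). The class held 15 and 2 cells at 3 months (control, mutant) and 13 and 9 cells at 12-16 months. The 1284 cartilage cells carried Col2a1 in 89.7%. The 158 bone/stroma cells were a mixture. Ptprc was found in 1 of 32 and 23 of 37 of them at 3 months (control, mutant) and in 2 of 15 and 7 of 74 at 12-16 months. In the 3-month library labelled mutant these cells held 673019 of 827698 UMIs although CD45-stained cells had been discarded in the sort. Immune markers summed to 6028 CPM in the bone/stroma cells of that library, against 14.9 CPM in the 3-month library labelled control. Values for bone/stroma are therefore given with and without these cells. Without them, 74.4% of the bone/stroma cells carried Lepr, 79.2% Cxcl12, 36.0% Adipoq and 42.4% Sp7, that is, genes of marrow stroma and of the osteoblast line. Markers of mural cells, which wrap vessels, summed to 1891 and 6.47 CPM in them at 3 months (control, mutant) and to 47.3 and 733 CPM at 12-16 months, and endothelial markers to 0 and 343 CPM at 3 months and 0 in both at 12-16 months. The part of these cells in the ratios of the class was not tested. The other cells were a mixture too. In them mural markers summed to between 6275 and 9510 CPM over the libraries, and chondrocyte markers to between 453 and 2344 CPM.

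The osteocalcin genes lie on 1 strand within 15.8 kb of chromosome 3 (GRCm38, the build of mm10, minus strand), Bglap3 at chr3:88368616-88372743, Bglap2 at chr3:88377736-88378699 and Bglap at chr3:88383501-88384464. The glycoprotein genes lie on the plus strand within 238 kb of chromosome 5, Dmp1 at chr5:104202613-104214102, Ibsp at chr5:104299171-104311469, Mepe at chr5:104325329-104338611 and Spp1 at chr5:104435118-104441050. Transcripts of Bglap and Bglap2 were identical in 98.6% of aligned bases, and their last 149 bases, the end that 3′ chemistry reads, did not differ. Bglap3 was 96.1% identical to Bglap and 97.7% identical to Bglap2, and shared its last 78 bases with each. The coding stretch of exon 4 below is shown because it holds 4 positions (in capitals) by which reads can be told apart, 3 of which separate Bglap3 from the other genes and 1 of which separates Bglap. It lies at chr3:88383638-88383690 in Bglap, chr3:88377873-88377925 in Bglap2 and chr3:88368759-88368811 in Bglap3.
Bglap: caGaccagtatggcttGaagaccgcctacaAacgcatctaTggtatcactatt
Bglap2: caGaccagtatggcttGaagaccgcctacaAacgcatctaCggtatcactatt
Bglap3: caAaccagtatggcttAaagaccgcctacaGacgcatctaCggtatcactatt
In the last 300 bases Bglap and Bglap2 differed at 1 base, and the next difference lay 392 bases from the end. Within these 300 bases, only reads over that base can tell Bglap from Bglap2. Reads that lie wholly within shared bases cannot be assigned to 1 gene, so the split among the 3 genes is uncertain. Their summed count, called osteocalcin here, was taken as the main value. How such reads were counted is not given in the sources used here. If they were left out, the sum is too low, and this was not tested.

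The promoters of the members were searched for TGTGGT, the core of the sites bound by Runx2, the transcription factor that directs osteoblast formation. RefSeq promoters (GRCm38.p6) were at hand for 6 of the 7 genes, all but Bglap2, and the motif was looked for on both strands, that is, also as its reverse complement, in the 250 bases before each start. It was found 132 bases before the start of Bglap, 164 before the start of Dmp1 at its second listed start, 128 before the first listed start of Spp1, and 118 and 80 before that of Mepe. It was not found in the windows of Ibsp, of the 3 starts of Bglap3, or of the other starts of Dmp1 and Spp1. The same letters occur in 14.0% of all 32851 promoters. The stretches around the matches are shown, on the gene strand, with the motif in capitals, so that the bases flanking it can be compared. They lie at chr3:88384563-88384628 (minus), chr5:104202423-104202488, chr5:104434953-104435018 and chr5:104325181-104325284 (plus).
Bglap: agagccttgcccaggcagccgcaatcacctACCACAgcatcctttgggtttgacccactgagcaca
Dmp1: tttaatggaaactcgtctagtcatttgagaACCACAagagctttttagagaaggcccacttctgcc
Spp1: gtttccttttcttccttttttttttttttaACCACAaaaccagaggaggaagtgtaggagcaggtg
Mepe: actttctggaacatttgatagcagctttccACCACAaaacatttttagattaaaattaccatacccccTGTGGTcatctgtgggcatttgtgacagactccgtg
A match of letters is a description of the sequence and not a site of binding.

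Osteocalcin was by far a gene product of the Col1a1-high cells. The 3 osteocalcin genes summed to 55194 CPM in these cells of the 3-month library labelled control and to 6160 CPM in that labelled mutant, and to 55935 and 44400 CPM at 12-16 months. In the other cells the sum was 2.69 CPM (1 UMI), 0, 511 and 1.76 CPM (1 UMI) in the same order. The Col1a1-high cells held 28897 of the 30631 osteocalcin UMIs of the 3-month library labelled control, 211 of 780 in that labelled mutant, 30343 of 30526 in the 12-16-month library labelled control and 11193 of 11544 in that labelled mutant. In every library but the 3-month library labelled mutant, the sum over all cells was thus set by the few Col1a1-high cells.

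Summed over all passing cells, osteocalcin was 3248 CPM for control and 107 CPM for mutant at 3 months, a ratio of 0.0329 (0.0306 to 0.0354), and 14168 and 2624 CPM at 12-16 months, a ratio of 0.185 (0.181 to 0.189). Col1a1-high cells made up 2.09% (1.18% to 3.43%) and 0.413% (0.0501% to 1.48%) of passing cells at 3 months, and 9.63% (5.23% to 15.9%) and 2.14% (0.982% to 4.02%) at 12-16 months. Barcodes over the Col1a1 limit that failed on mitochondrial counts are left out of these shares. They numbered 9 and 1 at 3 months (control, mutant) and 3 and 16 at 12-16 months. In such sums, fewer cells of a type and less RNA per cell cannot be told apart, and the following values are per class and per cell.

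**Figure D1:**
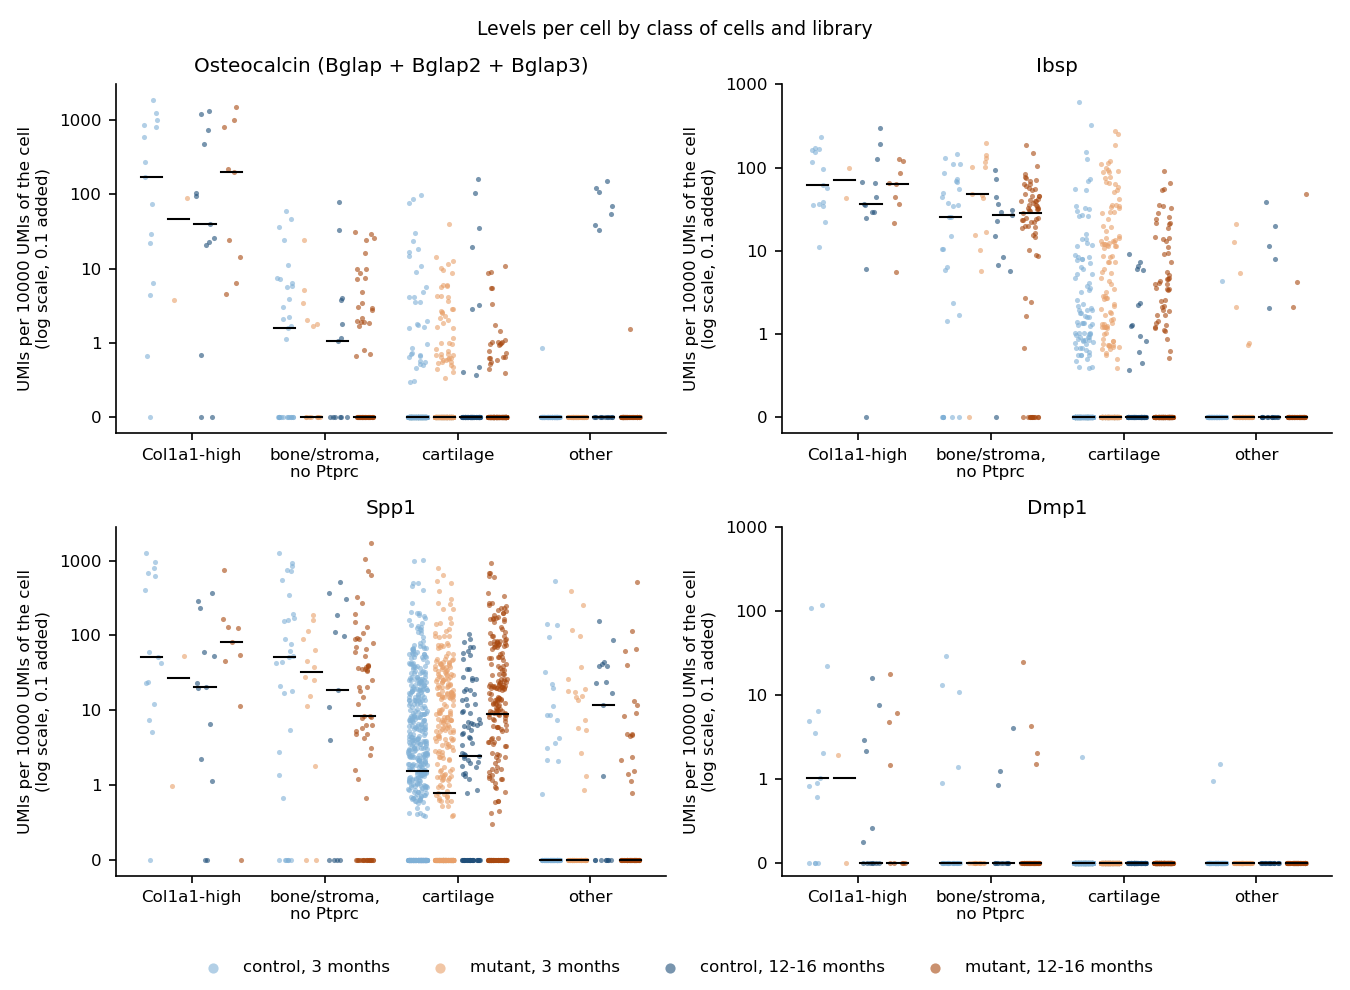
Levels per cell (UMIs per 10000 UMIs of the cell, log scale with 0.1 added) of osteocalcin, Ibsp, Spp1 and Dmp1 in 4 classes of cells, each point a cell, each color a library and each black bar the median of a library. Osteocalcin is high in most Col1a1-high cells and at 0 in most cartilage and other cells, and UMIs are found in 84.6% to 100% of the former and 6.24% to 13.3% of cartilage cells. Spp1 is found in 53.6% to 70.9% of cartilage cells.

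Within the Col1a1-high class, osteocalcin varied more between cells than between libraries. In the 15 cells of the 3-month library labelled control, the lowest count was 0, the median 364 and the highest 12367 UMIs. In the 13 cells of the 12-16-month library labelled control the values were 0, 86 and 16129, and in the 9 cells of that labelled mutant 3, 511 and 4915. The 2 cells of the 3-month library labelled mutant had 4 and 207 UMIs, at 11029 and 23225 UMIs in all. The ranges of the libraries overlapped throughout, and single cells carried much of each sum: the top cell held 42.8% and 98.1% of the osteocalcin UMIs of the class at 3 months (control, mutant), and 53.2% and 43.9% at 12-16 months.

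The class was cut on Col1a1, and osteocalcin followed Col1a1 within it. All cells with 500 or more Col1a1 UMIs had at least 10 osteocalcin UMIs, with medians of 875 in 10 cells for control at 3 months, 127 in 9 cells for control and 1196 in 7 cells for mutant at 12-16 months, and 207 in the single such mutant cell at 3 months. In the 3-month library labelled control, the 4 cells from 200 up to 500 Col1a1 UMIs had a median of 11 osteocalcin UMIs, and the 6 cells with 50 to 99, just outside the class, a median of 10.5. Across the 39 cells, Spearman's rho of osteocalcin with Col1a1, each per 10000 UMIs, was 0.72. The cells share libraries and depth, so this is a description.

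Osteocalcin UMIs were found in 14 of 15 cells (93.3%, Clopper-Pearson interval 68.1% to 99.8%), 2 of 2, 11 of 13 (84.6%, 54.6% to 98.1%) and 9 of 9 cells. Here and below, 4 values in a row are for 3 months (control, then mutant) followed by 12-16 months (control, then mutant). In other cells they were found in 1 of 109, 0 of 68 (which allows a share of up to 4.41%), 7 of 19 and 1 of 80 cells. The median depth was 17127 to 35871 UMIs in Col1a1-high cells and 1421 to 7629 in other cells. With every cell thinned to 750 UMIs, 75.7%, 57.5%, 73.1% and 80.6% of Col1a1-high cells and 0%, 0%, 36.3% and 0.25% of other cells had an osteocalcin UMI. The other cells of the 12-16-month library labelled control stood apart. Their 60 osteocalcin UMIs were split as 61.7% Bglap, 30.0% Bglap2 and 8.33% Bglap3, close to the 66.4%, 28.4% and 5.19% in the Col1a1-high cells of the library, and the red cell genes Hba-a1 and Hbb-bs summed to 91535 CPM in them. These 19 cells had a median depth of 2320 UMIs. The cartilage cells of the library had only 45.3 CPM of osteocalcin, but at a median depth of 11506.5 UMIs. The cartilage cells with the most osteocalcin, 17 and 14 UMIs, had only 1070 and 1365 UMIs in all. The other cells with the most, 15, 13 and 11 UMIs, had 1224, 873 and 1024 UMIs in all. Whether the 511 CPM is a background that all cells of this library share was not tested. Levels under the 511 CPM are set beside it without being called background.

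Bglap gave the larger part of osteocalcin UMIs in Col1a1-high and cartilage cells of every library. In bone/stroma cells of the 12-16-month library labelled mutant it gave 46.4% (39.7% to 53.2%) against 43.2% for Bglap2. In Col1a1-high cells at 3 months there were 1.99 Bglap UMIs per Bglap2 UMI for control (1.94 to 2.04) and 2.69 for mutant (1.96 to 3.74), and at 12-16 months 2.33 for control (2.28 to 2.39) and 3.12 for mutant (2.98 to 3.26). The ratio was higher in both libraries labelled mutant than in the control library of the same age, beyond counting error at 12-16 months. Bglap3, the osteocalcin-related gene known from kidney, gave from 3.79% to 6.28% of the UMIs. In 1 cell of the 12-16-month library labelled control it gave 78 of 127 osteocalcin UMIs. Across the 39 cells, Spearman's rho was 0.97 for Bglap with Bglap2 and 0.93 for Bglap with Bglap3. The part of the shared bases in these values was not tested.

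Ibsp was found in nearly all Col1a1-high cells and varied least. It had 9938, 8057, 6520 and 5276 CPM in the 4 libraries, with UMIs in 15 of 15, 2 of 2, 12 of 13 and 9 of 9 cells. Per cell, the lowest, median and highest counts were 11, 234 and 1091 for control at 3 months, 0, 146 and 887 for control and 18, 116 and 358 for mutant at 12-16 months, and the 2 mutant cells at 3 months had 47 and 229. The 4 libraries overlapped fully, and the top cell held from 21.0% to 26.9% of the UMIs in the 3 libraries with more than 2 cells.

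Spp1 and osteocalcin were for the most part high in different Col1a1-high cells, but most of the cells high in Spp1 held little Col1a1. Spp1 had 38182 and 1781 CPM at 3 months (control, mutant), and 5949 and 10722 CPM at 12-16 months. Of the 39 cells, 22 had at least 100 osteocalcin UMIs, with a median Spp1 level of 23.0 UMIs per 10000, and 3 of them had more than 100 Spp1 UMIs per 10000. In the other 17 cells the median was 131, and 10 of them had more than 100. Ibsp showed medians of 37.9 and 95.4 per 10000 in the same groups. The osteocalcin-rich cells held more Col1a1, with a median of 4166 UMIs against 391, at median depths of 35272 and 29660. Cells with under 100 osteocalcin UMIs and more than 100 Spp1 UMIs per 10000 had 113 to 480 Col1a1 UMIs, except a cell with 2359. At 1946 to 5219 Col1a1 UMIs, the cells with under 100 osteocalcin UMIs had 0 to 131 Spp1 UMIs per 10000. Whether Spp1 differed with osteocalcin among cells of like Col1a1 was not tested. Spearman's rho of Spp1 was -0.41 with osteocalcin and -0.71 with Col1a1 across the 39 cells, that of Ibsp with osteocalcin -0.45.

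The extremes show the spread in single Col1a1-high cells. In the 3-month library labelled control, the cell with the most osteocalcin (12367 UMIs) had 80 Spp1 UMIs and 8848 Col1a1 UMIs, and the cell with none had 3036 Spp1, 586 Ibsp and 349 Col1a1 UMIs. In the 12-16-month library labelled control, the cell with 16129 osteocalcin UMIs had 28 of Spp1, and a cell without osteocalcin had 813 of Spp1 and 664 of Ibsp. Other cells were rich in both. A cell of the 3-month library labelled control had 1702 osteocalcin and 1264 Spp1 UMIs. The cell with the most osteocalcin of the 12-16-month library labelled mutant (4915 UMIs) had 558 of Spp1. With 18 UMIs, it had the least Ibsp among the Col1a1-high cells of its library. The cell with the most Spp1 (7893 UMIs) also had 85 Acan and 17 Sox9 UMIs, and 1 cell of the 12-16-month library labelled control had 109 and 27. Both met the cartilage limits as well as the Col1a1 limit.

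Dmp1 was rare outside a few cells. It had 775, 58.4, 142 and 179 CPM in Col1a1-high cells, with UMIs in 11 of 15, 1 of 2, 6 of 13 and 4 of 9 cells, and medians of 5, 1, 0 and 0 UMIs. In the 3-month library labelled control, 2 cells had 108 and 191 Dmp1 UMIs, together with 92 and 65 UMIs of Phex, a membrane peptidase of osteocytes and late osteoblasts, and 0 and 12 of Spp1. The cell with 52 Dmp1 UMIs at 12-16 months had 142 of Phex and 0 of Spp1. High Phex alone did not mark Dmp1, since the cell with the most Phex (244 UMIs, 12-16 months, labelled mutant) had no Dmp1 UMI. Spearman's rho was 0.35 for Dmp1 with Phex and -0.57 for Spp1 with Phex. Mepe had 4 UMIs, in 2 cells of the 12-16-month library labelled mutant, and none in the Col1a1-high cells of the other libraries.

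The next comparison asks how the 7 genes differed between the libraries labelled mutant and control. At 3 months, 5 of the 6 members with at least 20 UMIs were at least 2-fold lower in the Col1a1-high cells of the library labelled mutant, with a counting interval that leaves out 1, and none was higher. Of all 3675 genes compared in this way, 6.94% were lower and 10.4% higher. In this and all later counts of members, the 3 osteocalcin genes count separately. They varied together and share read bases, so such counts are not of independent genes and cannot be weighed directly against the share of all genes. Osteocalcin had a ratio of 0.112 (0.0970 to 0.128), Spp1 of 0.0466 (0.0357 to 0.0599) and Dmp1 of 0.0753 (0.00909 to 0.274). Ibsp stood at 0.811 (0.716 to 0.915). The mutant value rests on 2 cells. By osteocalcin per 10000 UMIs, 1 had 2 control cells below it and 13 above, and the other had 7 below and 8 above. For Spp1, 8 control cells were lower and 7 higher than 1 of the cells, and 1 was lower and 14 higher than the other. Both cells thus lay within the control range. The cell with 207 osteocalcin UMIs was called a doublet by Scrublet. Without it the osteocalcin ratio was 0.00657 and that of Ibsp 0.429, and TMM scaling gave 0.459 for Ibsp, both past 2-fold.

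At 12-16 months, none of the 6 members with enough UMIs differed by 2-fold in the Col1a1-high cells as cut here, against 4.85% of all 4867 genes higher and 7.13% lower. Osteocalcin had a ratio of 0.794 (0.777 to 0.811) when UMIs were summed. The direction turned when every cell counted equally (1.34) and when cells were thinned (1.31), and the top cell held 53.2% of the control UMIs. Spp1 was 1.80 times as high in the library labelled mutant (1.71 to 1.90). It passed 2-fold at 3.06 where 50 Col1a1 UMIs sufficed and at 2.35 with the other cells subtracted, and was at 1.26 without the cell richest in members in each library. Ibsp had a ratio of 0.809 (0.759 to 0.862) and Dmp1 of 1.26 (0.851 to 1.84), which turned to 0.490 with at least 200 Col1a1 UMIs. Per cell, Spp1 had a lowest count of 0, a median of 58 and a highest count of 813 UMIs for control, and 0, 134 and 1077 for mutant, so the cells of both libraries overlapped.

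**Figure D2:**
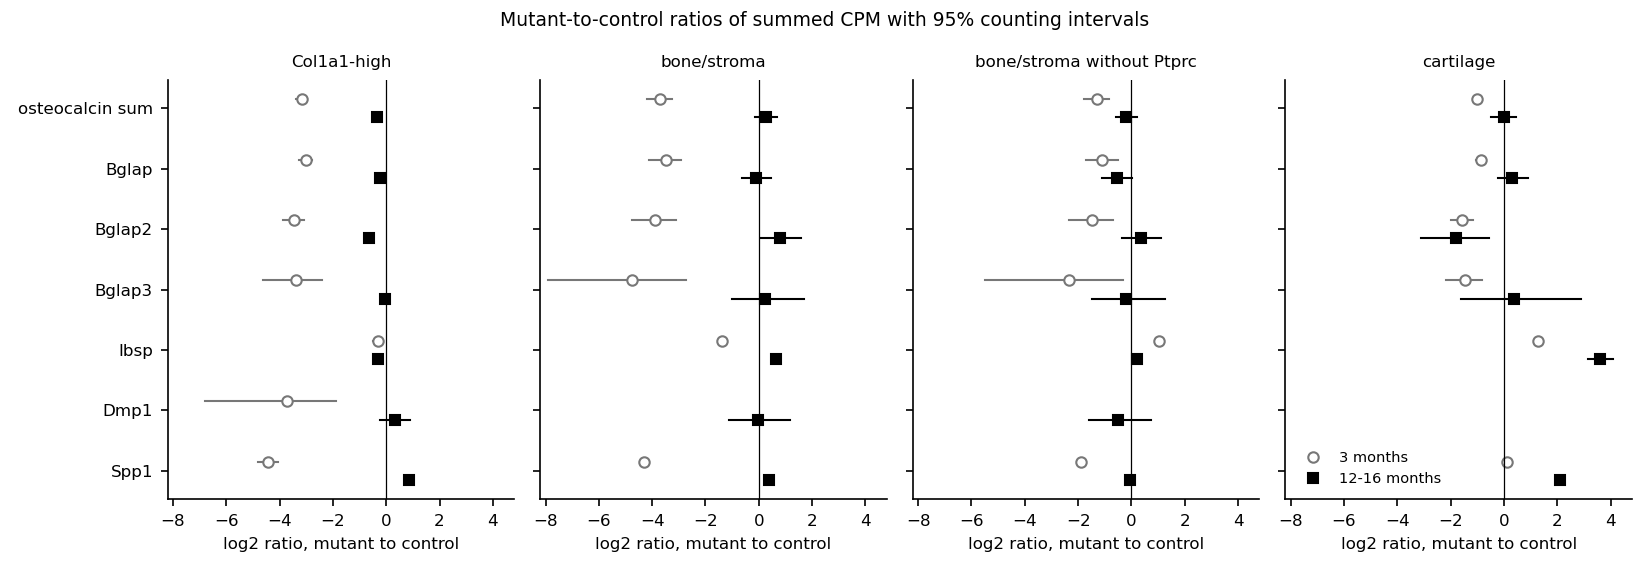
Mutant-to-control ratios of the libraries (log2 of the ratio of summed CPM, x axis) for osteocalcin and the members other than Mepe, wherever both libraries had UMIs, in 4 sets of cells, with open circles for 3 months, squares for 12-16 months and bars for 95% counting intervals. At 3 months the osteocalcin genes lie left of 0 in all 4 panels, while Ibsp changes side between bone/stroma with and without Ptprc-carrying cells. The bone/stroma panels share cells, and the Col1a1-high values at 3 months rest on 2 mutant cells. In cartilage at 3 months the osteocalcin ratio turned to 2.31 (2.00 to 2.66) without cells of 200 or more osteocalcin UMIs.

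With age, the summed osteocalcin level of Col1a1-high cells had a ratio of 1.01 (0.997 to 1.03) between 12-16 and 3 months in the libraries labelled control, or 0.676 with every cell counted equally, while Spp1 was at 0.156 (0.150 to 0.162) and Dmp1 at 0.183 (0.142 to 0.234) of the 3-month level. These were the 2 of 6 members at least 2-fold lower, against 8.8% of all genes, and none was higher, against 8.87%. Ibsp stood at 0.656 (0.628 to 0.685). In the 3-month library labelled control, 2 cells held 108 and 191 of the Dmp1 UMIs. A cell that also met the cartilage limits held 7893 of the Spp1 UMIs. With every cell counted equally, Spp1 was at 0.249 and Dmp1 at 0.121. In the libraries labelled mutant, osteocalcin was 7.21 times (6.29 to 8.30) and Spp1 6.02 times (4.67 to 7.89) as high at 12-16 months, both against the 2 cells at 3 months. Spp1 and the 3 single osteocalcin genes made 4 of 6 members higher, against 10.4% of all genes, and none was lower, against 11.6%. The age comparisons use the same libraries as the mutant-to-control ratios.

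Osteocalcin gave a far smaller part of the UMIs of the 7 genes in bone/stroma cells than in Col1a1-high cells. Without Ptprc-carrying cells, Spp1 gave 82.8% and 42.3% of the UMIs of the 7 genes at 3 months (control, mutant) and 78.7% and 76.1% at 12-16 months, Ibsp gave 14.4%, 55.8%, 18.7% and 21.6%, and osteocalcin only 1.93% to 2.51%. In Col1a1-high cells osteocalcin gave 53.0%, 38.4%, 81.6% and 73.3%, Spp1 36.7%, 11.1%, 8.68% and 17.7%, and Ibsp 9.55%, 50.2%, 9.51% and 8.71%. In the 3-month library labelled mutant, Ibsp thus had the largest share in both classes. A molecule gives 1 UMI whatever its length, so these shares are of counted molecules and were not scaled to length. Osteocalcin molecules read only in the shared bases may be missing from them.

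**Figure D3:**
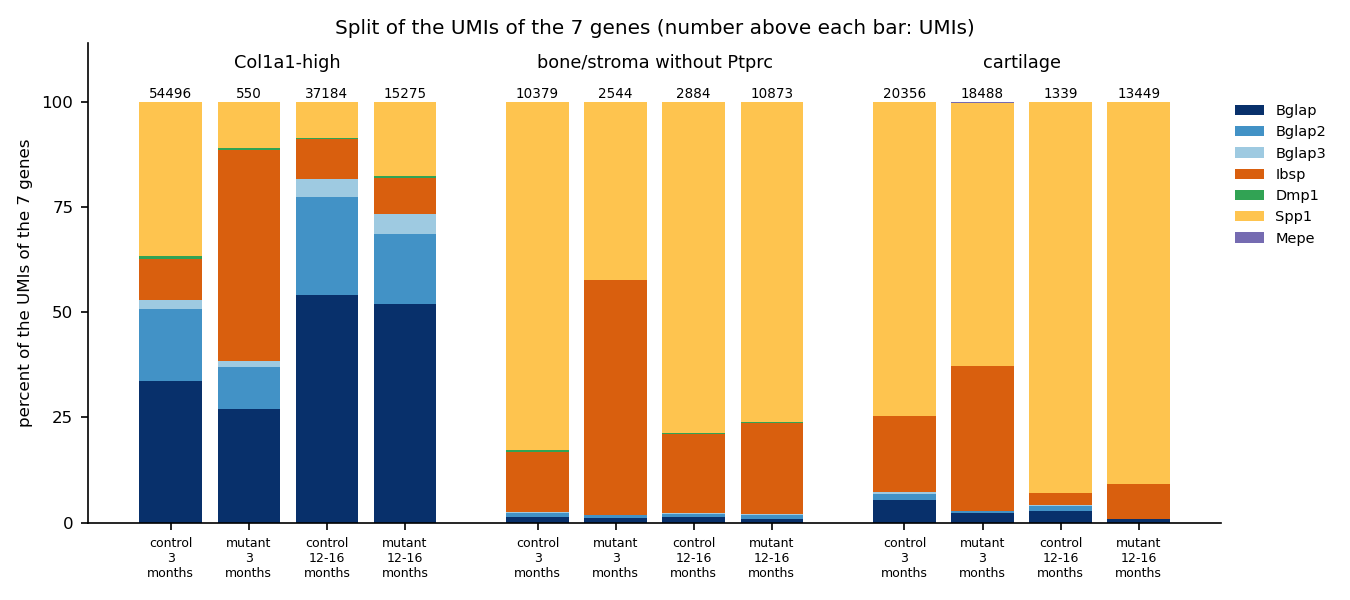
Split of the UMIs of the 7 genes (percent, y axis) in Col1a1-high, bone/stroma without Ptprc and cartilage cells of each library, with the number of UMIs above each bar. Osteocalcin fills 38.4% to 81.6% of the Col1a1-high bars, and Spp1 with Ibsp nearly all of the others.

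Osteocalcin had 779 and 317 CPM in bone/stroma cells without Ptprc at 3 months (31 control and 14 mutant cells) and 396 and 348 CPM at 12-16 months (13 and 67 cells). It was found in 17 of 31, 6 of 14, 7 of 13 and 24 of 67 cells, with at most 86 UMIs in a cell. In the 12-16-month library labelled control, the 396 CPM lay under the 511 CPM of the other cells. Of the 67 UMIs behind it, 43 were in 1 cell of 5459 UMIs that also had 24 Ibsp UMIs, whereas no other cell had more than 15. Without that cell the level was 147 CPM. Whether these levels lie above background was not tested. Ibsp had 4469, 9180, 3183 and 3685 CPM and was found in 77.4%, 92.9%, 92.3% and 82.1% of the cells, against 0.917%, 8.82%, 26.3% and 3.75% of other cells, at median depths of 8535 to 12142 against 1421 to 7629 UMIs. Spp1 had 25751, 6950, 13426 and 12954 CPM. Its highest cells held 3137, 436, 1068 and 3615 UMIs, from 36.5% to 47.1% of the sum of the class.

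Cells of this class with Adipoq, a gene of adipogenic marrow stroma, had few osteocalcin UMIs, namely 9, 6, 0 and 6 in 9, 4, 3 and 29 cells. These cells held 108444, 59716, 59582 and 290391 UMIs of all genes, so the counts of 9 and 6 at 3 months come from small sums. The same cells held 203, 735, 90 and 652 Ibsp UMIs and 538, 468, 0 and 298 Spp1 UMIs. Ibsp was thus present in stromal cells with few or no osteocalcin UMIs.

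At 3 months, the bone/stroma ratios depended on the Ptprc-carrying cells. With all cells, 6 of 6 members were at least 2-fold lower in the library labelled mutant, against 16% of all 8369 genes (17.2% were higher). Osteocalcin had a ratio of 0.0765 (0.0552 to 0.104), Ibsp of 0.387 (0.359 to 0.416) and Spp1 of 0.0509 (0.0478 to 0.0543). The Ptprc-carrying cells held no UMI of osteocalcin or Ibsp and 7 of Spp1 in the 4 libraries together. Without them, 5 of 6 members were lower (5.86% of all 4813 genes) and Ibsp was higher (6.84%). Osteocalcin had a ratio of 0.406 (0.293 to 0.553), Spp1 of 0.270 (0.253 to 0.288), and Ibsp of 2.05 (1.91 to 2.21), so that Ibsp turned from lower to higher. Of the 1420 Ibsp UMIs in the library labelled mutant, 735 were in the 4 cells with Adipoq, and without these cells too the Ibsp ratio was 1.26. Dmp1 had 37 UMIs in the library labelled control and 0 in that labelled mutant, at least 5.72-fold lower.

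At 12-16 months, none of the 6 members differed by 2-fold in the summed UMIs of bone/stroma cells, with or without Ptprc-carrying cells. Of all genes, 6.01% were higher and 5.19% lower with them, and 5.76% and 3.07% without. The osteocalcin ratio was 1.20 (0.906 to 1.59) with all cells and 0.877 (0.665 to 1.17) without Ptprc-carrying cells. With all cells it turned to 0.325 when every cell counted equally and to 0.318 when cells were thinned, past 2-fold, where the control cell with 43 UMIs weighs more. Ibsp moved from 1.58 (1.44 to 1.74) to 1.16 (1.05 to 1.27). Spp1 stood at 1.31 (1.25 to 1.38) and at 0.965 (0.921 to 1.01), where the interval holds 1.

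Cartilage cells expressed Spp1 widely and Ibsp in part, with little osteocalcin. Spp1 was found in 63.6% and 53.6% of cartilage cells at 3 months (control, mutant) and in 65.9% and 70.9% at 12-16 months, at 1852, 1982, 1006 and 4269 CPM. In other cells it was found in 15.6%, 26.5%, 57.9% and 23.8%, and thinned to 750 UMIs the shares were 29.0%, 30.8%, 32.8% and 47.6% in cartilage against 9.50%, 16.9%, 50.3% and 11.0%. By summed level, cartilage was not above the other cells in the 12-16-month library labelled control (1705 CPM in other cells) and close to them in the 3-month library labelled control (1772 CPM, 58.7% of it from 1 cell). At 3 months (control, mutant), other cells with Ptprc had 0 and 5.68 CPM of Spp1, and those without had 1873 and 1246 CPM. In the 12-16-month library labelled mutant the values were 17.9 and 1235 CPM. The other cells are thus not a background free of Spp1. Ibsp was found in 15.9%, 27.1%, 15.9% and 20.5% of cartilage cells, at 447, 1085, 31.5 and 383 CPM, and in other cells at 8.08, 60.2, 119 and 47.6 CPM. Dmp1 had 3 UMIs, in 1 of the 1284 cells.

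Osteocalcin in cartilage had 180, 89.0, 45.3 and 44.7 CPM. In the 3-month library labelled control, 35 of 561 cells held its 1473 UMIs, and the top cell had 501. In sum, the mixture of genes differed from that in the Col1a1-high cells of the same library. There were 3.94 (3.45 to 4.51) Bglap UMIs per Bglap2 UMI against 1.99. There were 638 osteocalcin UMIs per 100 Col1a1 UMIs against 71.8, although this ratio is bounded by the class rule. The first ratio rests largely on 3 cells, which held 1162 of the UMIs and differed among themselves. From the richest down they had 315, 361 and 167 Bglap UMIs and 157, 41 and 53 Bglap2 UMIs, respectively, counts that the shared bases make uncertain. In the 3-month library labelled mutant there were 6.40 (4.94 to 8.41) Bglap UMIs per Bglap2 UMI against 2.69. At 12-16 months there were 2.53 (1.36 to 4.96) against 2.33 for control, where the interval holds 2.33, and 10.9 (5.71 to 23.4) against 3.12 for mutant. The osteocalcin level for control at 12-16 months lay under that of the other cells.

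At 3 months osteocalcin, and at both ages Ibsp, were concentrated in the cartilage cells that carried Col10a1, Ihh or Panx3, markers of hypertrophic and prehypertrophic chondrocytes. These cells numbered 115 of 561, 86 of 377, 21 of 88 and 81 of 258. Over the 1284 cartilage cells, Spearman's rho with Col10a1 was 0.04 for osteocalcin and 0.20 for Ibsp. Panx3 was also found in 30.8% of the 39 Col1a1-high cells, and Col10a1 and Ihh in none. The pooled markers thus do not show that osteocalcin followed Col10a1. At 3 months the marker-carrying cells held 93.9% and 86.2% of the osteocalcin UMIs of cartilage (control, mutant) and 89.9% and 93.7% of the Ibsp UMIs. At 12-16 months they held 23.2% and 42.2% for osteocalcin and 74.4% and 83.7% for Ibsp, in 23.9% and 31.4% of the cells. For control at 12-16 months, Ibsp rests on 29 UMIs in these cells, 15 of them in 1 cell, against 10 UMIs in the rest of cartilage. Both levels, 89.5 and 11.0 CPM, lay under the 119 CPM of the other cells of that library. Of the Spp1 UMIs they held 66.3% and 49.9% at 3 months and 19.8% and 63.4% at 12-16 months. All Mepe UMIs of cartilage were in such cells, 34 and 40 UMIs in 2 and 3 cells at 3 months (control, mutant) and 3 UMIs in 1 cell of the 12-16-month library labelled mutant. In that library the 4 Mepe UMIs of 2 of 9 Col1a1-high cells made the higher level, 15.9 CPM.

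**Figure D4:**
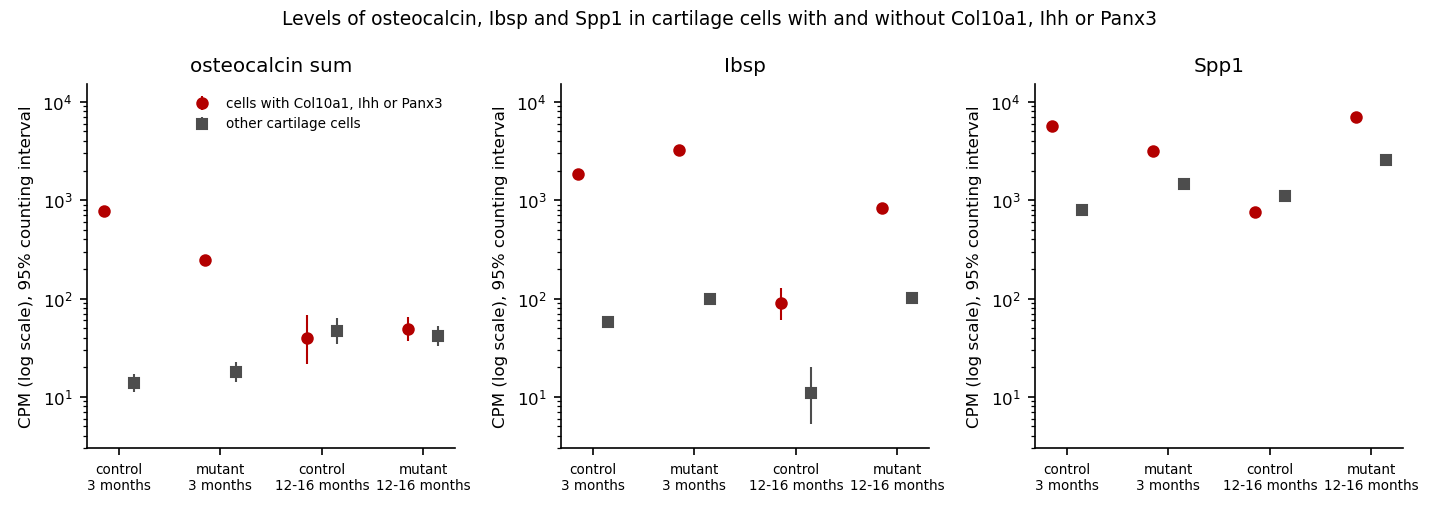
Levels (CPM, log scale) of osteocalcin, Ibsp and Spp1 in cartilage cells with (red) and without (gray) Col10a1, Ihh or Panx3 in each library, with 95% counting intervals. Ibsp is higher in the marker-carrying cells of all 4 libraries, osteocalcin beyond counting error only at 3 months (781 against 14.0 and 245 against 17.9 CPM), and Spp1 in all but the 12-16-month library labelled control. The Ibsp levels of the 12-16-month library labelled control rest on 29 and 10 UMIs.

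Between the libraries at 3 months, Ibsp was higher in cartilage of the library labelled mutant, and the direction of osteocalcin depended on 3 cells. Of the 6 members with enough UMIs, Bglap2 and Bglap3 were at least 2-fold lower in the library labelled mutant (6.17% of all 13236 genes) and Ibsp was higher (10.1%). Ibsp had a ratio of 2.43 (2.33 to 2.53) and summed osteocalcin of 0.495 (0.447 to 0.548), while the share of cells with osteocalcin was higher in the library labelled mutant, at 13.3% (10.0% to 17.1%) against 6.24% (4.38% to 8.57%), and close to equal when thinned, at 2.64% and 2.01%. The ratio of Spp1 was 1.07 (1.04 to 1.10), but 0.718 with the Col1a1 limit set per 10000 UMIs and 13.9 after subtraction of the other cells, whose level was close to that of control cartilage. That of Mepe was 1.65 (1.02 to 2.69). Within the marker-carrying cells the osteocalcin ratio was 0.314 (0.282 to 0.350), that of Ibsp 1.75 (1.68 to 1.83) and that of Spp1 0.557 (0.540 to 0.576). In the cells without these markers the ratios were 1.28 (0.925 to 1.76), 1.72 (1.49 to 1.99) and 1.81 (1.75 to 1.88). Spp1 moved in opposite directions in the 2 sets of cells. The lower osteocalcin sum rested on 3 control cells with 231, 430 and 501 UMIs, all with Ihh, which held 1162 of the 1383 UMIs of the marker-carrying control cells. Without cells of 200 or more osteocalcin UMIs, a limit set after seeing the data, the ratio turned to 1.81 (1.54 to 2.14) in marker-carrying cells and to 2.31 (2.00 to 2.66) in all cartilage. Osteocalcin was found in 39.5% of the marker-carrying mutant cells against 15.7% of the control cells, or 9.19% and 7.09% when thinned, at median depths of 20153.5 and 13322 UMIs.

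At 12-16 months, Ibsp and Spp1 were at least 2-fold higher in cartilage of the library labelled mutant (2 of 4 members with enough UMIs, against 3.1% of all 11004 genes) and Bglap2 was lower (3.24%). Ibsp had a ratio of 12.1 (8.82 to 17.2), from 1096 UMIs in 258 cells against 39 in 88, and of 5.43 with cells counted equally and 5.37 thinned. Spp1 had a ratio of 4.24 (4.002 to 4.50), from 12222 against 1244. Both held in cells with the hypertrophic markers, at 9.35 (6.47 to 14.0) and 9.32 (8.21 to 10.6), and in those without, at 9.24 (4.91 to 19.6) and 2.31 (2.16 to 2.48). The control values of both genes lay under the level of the other cells of that library (119 CPM for Ibsp and 1705 CPM for Spp1). Osteocalcin had a ratio of 0.987 (0.716 to 1.38), but of 0.0609 with cells counted equally and 0.0587 thinned, where control cells of 1070 and 1365 UMIs with 17 and 14 osteocalcin UMIs weigh most. Bglap2 rested on 10 and 15 UMIs.

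With age, most members were lower in cartilage of the libraries labelled control. There 5 of 6 members were called lower at 12-16 than at 3 months, against 2.65% of all 12373 genes, and none was higher (6.38%). The call of Mepe rests on a count of 0, whose bound does not reach 2-fold. Ibsp stood at 0.0706 (0.0501 to 0.0967) of its 3-month level, osteocalcin at 0.252 (0.190 to 0.329), and Mepe had 0 UMIs against 34, at least 1.71-fold lower. The osteocalcin sum at 3 months again rested on the 3 cells named above. Without them the ratio was 1.17 (0.867 to 1.56), with cells counted equally it was 4.88, and the thinned share of cells with a UMI was 4.94% at 12-16 months against 2.01%. Spp1 stood at 0.543 (0.512 to 0.576). In the libraries labelled mutant, 3 of 6 members were lower (5.42% of all 12445 genes) and Spp1 was higher (4.68%), with ratios of 0.353 (0.331 to 0.376) for Ibsp, 0.503 (0.411 to 0.611) for osteocalcin and 2.15 (2.10 to 2.21) for Spp1. In bone/stroma cells without Ptprc, Bglap2 was the 1 of 6 members lower with age for control (4.21% of all genes lower, 4.35% higher), at 0.411 in the sum and 1.01 with cells counted equally. For mutant, Ibsp was lower (3.65%) at 0.401 (0.376 to 0.429), and Dmp1, with 27 UMIs against 0, was at least 2.18-fold higher (5.45%). With Ptprc-carrying cells, 5 of 6 members were lower for control (5.44% lower, 6.01% higher; osteocalcin at 0.335 in the sum and 1.17 with cells counted equally), and 5 of 6 higher for mutant (18.4% higher, 15.5% lower).

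Of 32 genes that regulate, modify, bind or accompany these proteins, few passed 2-fold in Col1a1-high cells. At 3 months 4 of 24 with enough UMIs were called higher (against 10.4% of all genes) and 2 lower (6.94%), with a median log2 ratio of 0.22 against -0.01 over all genes. Phex had a ratio of 3.97 (3.07 to 5.07) and Alpl, the phosphatase of mineralization, of 3.04 (1.96 to 4.55). Vkorc1, which recycles the vitamin K that osteocalcin needs, was at 0.222 (0.0453 to 0.656) on 3 UMIs, and Atf4, a regulator of osteocalcin, had 0 UMIs against 79, at least 1.72-fold lower, a bound short of 2-fold. Of the 82 Phex UMIs of the 2 mutant cells, 80 were in 1 cell. At 12-16 months 2 of 25 were higher (4.85%) and 3 lower (7.13%). Mgp, a mineralization inhibitor related to osteocalcin, had 3 UMIs in the mutant and 993 in the control cells, of which 988 were in the cell that also carried 109 Acan UMIs. Omd, a matrix proteoglycan, was at 4.71 (2.54 to 9.11) and Pdpn, a gene of young osteocytes, at 0.196 (0.0611 to 0.485).

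In cartilage at 3 months, 10 of 27 of these genes were higher (against 10.1% of all genes) and 2 lower (6.17%), with a median log2 ratio of 0.42 against 0.08 over all genes. Runx2 had a ratio of 4.48 (4.18 to 4.81), Mgp of 4.44 (4.39 to 4.49) and Vdr, the vitamin D receptor, of 4.36 (2.56 to 7.74), and Col1a1 of 0.0607 (0.0287 to 0.114). The class rule keeps Col1a1 under 100 UMIs in each cartilage cell, and 1 control cell held 90 of the 231 control UMIs. At 12-16 months Alpl at 4.45 (3.61 to 5.53) and Runx2 at 2.04 (1.79 to 2.34) were the 2 of 24 that were higher (3.1%), and Col1a1 at 0.199 (0.130 to 0.299) the 1 that was lower (3.24%). In bone/stroma cells without Ptprc, 1 of 23 was higher (6.84%) and 2 were lower (5.86%) at 3 months, and 2 (5.76%) and 1 (3.07%) of 23 at 12-16 months. With Ptprc-carrying cells, 17 of 25 were lower at 3 months (16%).

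The genes whose levels most resembled those of the members were taken over 15 sums of a class in a library with at least 5 cells each, from 11851 genes, by Pearson's r of log2(CPM + 1). For osteocalcin they were Sgms2 (0.95), Cercam, Col5a1, Serf1 and Rcn1 (0.93). For Ibsp they were Cadm1 (0.93), Srpx, Bmp8a and Wnt5a (0.91), and for Spp1 Cd63 (0.92), Gpx8, Vldlr and Mef2a (0.90). Among the members, osteocalcin reached 0.81 with Ibsp, 0.79 with Dmp1 and 0.75 with Spp1. The sums share libraries and are split by cell class, so these values describe the order of the classes.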

How the data were processed

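Vertebral tdTom-positive cells had been sequenced with the 10x Genomics 3′ v3.1 chemistry, 1 library for each condition. The deposited matrices held UMI counts per gene and cell, which the authors made with Cell Ranger (8.0.0 per the file headers) on mm10. Further settings are not given in the sources used here. The study's correction for ambient RNA with SoupX was not repeated, and levels in other cells are given instead. The study analysed fewer cells than passed here, and the reason is not given in the sources used here.

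Cells passed above 750 UMIs and 500 genes, with mitochondrial counts under 7%. Doublets were not removed. Scrublet calls (expected rate 6%) numbered 2 and 4 at 3 months (control, mutant) and 9 and 4 at 12-16 months, which is under 1% in 3 libraries, and served only in an alternative. Counts were summed per library and class, and members with at least 20 UMIs over both libraries were compared. A gene was called past 2-fold where the ratio of CPM reached 2 with an interval that leaves out 1 (exact conditional binomial). A count of 0 was taken as past 2-fold, and its bound used a floor of 3 counts over the class. Levels have exact Poisson and shares Clopper-Pearson intervals at 95%, and PCR and cell-to-cell variation are not in them. Each cell was thinned to 750 UMIs in 20 draws.

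The members and lists were chosen with earlier results of these data known. Named genes were the members, Nf1, the class genes, the 5 genes most like osteocalcin, Ibsp and Spp1, and up to 4 examples per class of the listed pathway with the largest fold. Of the genes most like Ibsp and Spp1, 1 each is not reported here. Mgp counts per cell were looked up after its values were seen. Alternatives changed the Col1a1 limit, the cell filter, the weights of cells, thinning, doublets, the top cell, ambient subtraction, scaling (TMM) and the gene filter. The fold calls were run on simulated Poisson counts, the model that the counting intervals also assume. Variation between cells was left out of them and was not tested. Python 3.11.15, numpy 2.4.6, scipy 1.17.1, pandas 2.3.3, matplotlib 3.10.9, R 4.3.3, edgeR 4.0.16 (TMM only) and scanpy 1.11.5 were used.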

Additional observations from a re-analysis of the deposited data

Results flagged for a closer look

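Ratios of mutant to control lay on opposite sides of 1 at the 2 ages, with both intervals leaving out 1, for 4 results, each from 1 library per condition, and the difference between ages was not tested. In Col1a1-high cells, Spp1 had a ratio of 1.80 at 12-16 months and 0.0466 at 3 months, the latter from 2 mutant cells. In bone/stroma cells with Ptprc-carrying cells included, Bglap2 had 1.73 at 12-16 months against 0.0677, Ibsp 1.58 against 0.387 and Spp1 1.31 against 0.0509. Without those cells the pairs were 1.27 and 0.359 for Bglap2, 1.16 and 2.05 for Ibsp, and 0.965 and 0.270 for Spp1. Bglap2 still had a ratio above 1 at 12-16 months and under 1 at 3 months, but its 12-16-month interval held 1. None of these 3 thus met the rule without those cells. The part of the Ptprc-carrying cells in the remaining differences was not tested.

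Barcodes that failed the cell filter also held members. In the 12-16-month library labelled mutant they had 943 CPM of Ibsp, against 587 CPM in the library labelled control of that age, and 2695 CPM of Spp1 against 503 CPM. Osteocalcin went the other way, at 1699 against 3827 CPM, and at 3 months both osteocalcin and Ibsp were lower in the library labelled mutant, at ratios of 0.0306 and 0.0566. Barcodes with at least 100 Col1a1 UMIs that failed numbered 9 and 1 at 3 months (control, mutant) and 3 and 16 at 12-16 months, all of which failed on mitochondrial counts.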

How the results depend on the processing

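No paired analysis was possible because each condition had 1 library, and no library could be left out. In Col1a1-high cells at 3 months, the osteocalcin ratio of 0.112 became 0.0852 with a Col1a1 limit per 10000 UMIs, 0.133 with all barcodes, 0.00657 without called doublets, 0.0100 without the top cell and 0.0632 with TMM scaling. At 12-16 months, 0.794 became 0.673 and 0.695 with at least 50 and 200 Col1a1 UMIs, 0.698 with the limit per 10000, 0.687 with all barcodes, 0.828 without the top cell, 0.736 with TMM and 0.688 without cells with cartilage counts, and turned to 1.34 with equal weights and 1.31 when thinned. In bone/stroma cells at 3 months, 0.0765 became 0.0480 with all barcodes, 0.145 with equal weights, 0.129 thinned, 0.406 without Ptprc-carrying cells and 0.406 without those carrying Ptprc or Adipoq. At 12-16 months, 1.20 became 0.325, 0.318 and 0.877 with equal weights, thinning and without Ptprc. The cause was not tested.

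Among single members, Col1a1-high ratios at 12-16 months turned to 1.02 for Ibsp (at least 50 Col1a1 UMIs), 1.47 and 1.42 for Bglap and 1.09 and 1.09 for Bglap2 (equal weights, thinned). In bone/stroma, Ibsp turned to 2.05 and 1.26 at 3 months (without Ptprc, without Ptprc or Adipoq) and to 0.810 at 12-16 months (Col1a1 at 200, or per 10000), Bglap2 to 0.423 and 0.487, and Spp1 to 0.805, 0.772 (equal weights, thinned) and 0.965 (without Ptprc). Cartilage Spp1 at 3 months turned to 0.718 (per 10000) and 0.995 (TMM), and was 13.9 with the other cells subtracted. Of the other values, 320 kept and 312 left the range of their counting error.

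Genes called at 2-fold in all changed from 383 to 615 and 718 (higher, Col1a1-high, 3 months, at least 5 and 1 UMIs), from 236 to 359 and 371 (12-16 months), from 1438 to 329 and from 1343 to 282 (higher and lower, bone/stroma, 3 months, without Ptprc), from 399 to 681, 734 and 209 (lower, 12-16 months, at least 5 and 1 UMIs, without Ptprc) and from 357 to 554 (lower, cartilage, 12-16 months, at least 1 UMI). Subtraction of the other cells gave no value for osteocalcin in bone/stroma, or for osteocalcin, Ibsp and Spp1 in cartilage, at 12-16 months, nor did Bglap3 at 3 months without doublets or the top cell. The alternatives on Ptprc, Adipoq, cartilage counts, cells of 200 or more osteocalcin UMIs and equal weights over age were chosen after seeing the data. With 2 Col1a1-high cells in 1 library and 1 library per condition, intervals cover counting error only, and differences between mice or preparations cannot be told apart from genotype or age.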
